A study of Mus musculus with 6 samples.

Results

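The galectins are a family of proteins that bind beta-galactoside sugars, and 7 galectin genes (*Lgals1*, *Lgals3*, *Lgals4*, *Lgals7*, *Lgals8*, *Lgals9* and *Lgals12*) were examined together with *Lgals3bp*, which encodes a secreted glycoprotein that galectins bind. Members were the array probes whose transcript accession belongs to one of these 8 genes, which gave 11 of 55681 probes and 8 of 21368 named genes. *Lgals1* was chosen by its log2 fold change in cells lacking both *Sox4* and *Sox11*, the lowest of all named genes above background, so its values in those cells are given as a description and carry no test. The 7 others were taken by family, and their values were compared with it.

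Expression was measured on 2-colour Agilent arrays in cultured primary keratinocytes, which form the epidermis, from the skin of newborn mouse pups. Sox4 cKO, Sox11 cKO and dcKO cells lacked *Sox4*, *Sox11* or both of these SOXC transcription factors, with 2 arrays per genotype, and each array carried wild-type control RNA in its second channel. The labels give a mixed 129SvEx:C57BL/6 strain for both channels. Per the study's methods, the loci were deleted from *Sox4* fl/fl and *Sox11* fl/fl alleles by Krt14-Cre, which acts in *Krt14*-expressing epithelial cells. The floxed stock also carried *Sox12*-/- and was bred to Krt14-Cre mice of FVB/N background, and the breeding genotypes given after that cross name no *Sox12* allele. The cells grew on J2 fibroblast feeders for several passages and then without them. The labels call the arrays biological replicates but do not tie them to animals, so the p-values measure the spread between these cultures.

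Galectins are made without a signal peptide, reach the cell surface by an unconventional route and cross-link glycoproteins such as integrins and laminin, while a pool stays in the cytosol and nucleus. Galectin-1 (*Lgals1*) is a galectin that works as a dimer and is made by fibroblasts, endothelial cells and many embryonic tissues. Galectin-3 (*Lgals3*) is the chimera type with a collagen-like tail and galectin-7 (*Lgals7*) is made mainly in stratified epithelia, and both are known in epidermis for roles in adhesion and re-epithelialization. Galectin-4, galectin-8, galectin-9 and galectin-12 carry tandem sugar-binding domains.

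On the arrays, the share of probes well above background ran from 35.1% to 42.8% in knockout channels and from 37.3% to 45.0% in wild-type ones. Values are log2 ratios of knockout over wild type, negative where the knockout had less signal, and levels are normalised log2 signals of 1 channel that can be compared for 1 probe across channels but not between probes. Knockout RNA was in Cy5 on replicate 1 and in Cy3 on replicate 2. Ratios of single arrays and their SD include the effect of this dye swap unless stated. The tests and confidence intervals come from a model with a dye term, so an SD does not measure their precision. A probe was called where its limma adjusted p was below 0.05 and its log2 fold change was above 1.5 in either direction, which held for 0.142% of all probes in Sox4 cKO, 0.0862% in Sox11 cKO and 0.756% in dcKO cells. The targeted genes followed the labels. *Sox4* fell by 2.52 on the log2 scale in both Sox4 cKO and dcKO cells (adjusted p = 0.00395 and 0.00105 by limma), and *Sox11* changed by -2.98 in Sox11 cKO and by -3.43 in dcKO cells (adjusted p = 0.0412 and 0.0066 by limma), while a second *Sox11* probe gave -2.78 in Sox11 cKO cells and did not pass the test (adjusted p = 0.0942 by limma). The basal keratinocyte keratins *Krt5* and *Krt14* were above background in all 12 channels, with wild-type levels between 16.38 and 18.00 for *Krt5* and between 16.12 and 16.85 for *Krt14*.

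The promoter windows of the members were searched first for the short sequence that SOX proteins bind. RefSeq promoters of the build GRCm38.p6, each from 250 bases before to 50 bases after a transcription start, were held for 6 of the 8 genes, all but *Lgals1* and *Lgals12*. Searched on both strands, the SOX core ACAAAG was found in 1 of these 6 windows (*Lgals3bp*) and in 18.7% of 32851 promoters of the mouse table. The SOX core ACAATG was found in 1 window (*Lgals8*) and in 12.6% of the table. The AP-1 site TGANTCA and the TATA box TATAAA were found in 0 of the 6, against 7.81% and 13.6% of the table. The windows with a SOX core are shown, with the match in capitals, and that of *Lgals7* is added because its level varied most between wild-type channels.
Lgals8 (chr13:12461689-12461988, minus strand): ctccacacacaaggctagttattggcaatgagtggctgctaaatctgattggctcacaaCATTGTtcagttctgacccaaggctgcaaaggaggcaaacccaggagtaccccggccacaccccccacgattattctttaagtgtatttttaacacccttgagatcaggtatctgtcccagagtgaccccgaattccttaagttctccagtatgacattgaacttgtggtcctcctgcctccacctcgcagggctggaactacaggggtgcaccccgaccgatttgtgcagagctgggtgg
Lgals3bp (chr11:118401910-118402209, minus strand): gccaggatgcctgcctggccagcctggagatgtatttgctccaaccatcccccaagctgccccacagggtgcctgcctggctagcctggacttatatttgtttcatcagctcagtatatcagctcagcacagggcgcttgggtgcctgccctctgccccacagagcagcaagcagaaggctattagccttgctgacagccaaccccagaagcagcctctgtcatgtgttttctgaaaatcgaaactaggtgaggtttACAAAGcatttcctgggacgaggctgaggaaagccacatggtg
Lgals7 (chr7:28864136-28864435, plus strand): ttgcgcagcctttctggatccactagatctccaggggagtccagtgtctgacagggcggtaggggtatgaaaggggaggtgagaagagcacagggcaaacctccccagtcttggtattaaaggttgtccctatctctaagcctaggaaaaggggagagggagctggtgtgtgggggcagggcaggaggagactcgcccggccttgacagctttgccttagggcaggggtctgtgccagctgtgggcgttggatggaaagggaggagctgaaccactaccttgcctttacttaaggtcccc
The *Lgals8* match lies 191 bases before the transcription start, on the strand opposite to the gene, and the *Lgals3bp* match lies 7 bases after it. A match is a run of letters and not a measured binding site. In the double knockout, the log2 fold changes of these members were -0.30 for *Lgals8*, -0.26 for *Lgals3bp* and 0.62 for *Lgals7*, and 0 of these values passed the test.

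*Lgals1* (probe A_51_P465281) was the one galectin with a large response, and the response was seen in dcKO cells. The log2 ratio was -5.88 on the first and -6.69 on the second dcKO array. In Sox4 cKO cells the ratio was 3.09 on the first array and -0.86 on the second. In Sox11 cKO cells it was 0.20 on the first array and 1.82 on the second. Both dcKO arrays thus lay below the other 4 arrays. In these ratios, which include the dye effect, 3 of those 4 had more *Lgals1* signal in the knockout than in the wild-type channel. With the fitted dye effect subtracted, the ratio was 2.57 and -0.34 in Sox4 cKO and -0.33 and 2.34 in Sox11 cKO cells. The arrays of each single knockout then lay on opposite sides of 0. The mean log2 fold change in dcKO was -6.28 ± 0.57 (SD, n = 2), which is 77.9-fold lower. In RNA from a whole culture, fewer cells of a type and less RNA per cell cannot be told apart. These are the values that chose the gene, and its place among the 0.444% of probes called lower in dcKO cells follows from that choice. The next lowest of the 12630 named genes above background were *Pxdn* at -5.37 and *Cyba* at -4.76.

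In either single knockout, *Lgals1* did not pass the test. The log2 fold change was 1.12 ± 2.80 in Sox4 cKO (SD, n = 2; adjusted p = 0.807 by limma; 95% confidence interval -0.62 to 2.85) and 1.01 ± 1.15 in Sox11 cKO cells (SD, n = 2; adjusted p = 0.926 by limma; 95% confidence interval -0.73 to 2.74). The Sox4 cKO value was -1.07 without Sox4 cKO replicate 1. Both Sox11 cKO arrays were above 0 only before the dye effect was subtracted. The fitted value was -0.99 without Sox11 cKO replicate 2, where the dye term was estimated on the other arrays. Without Sox11 cKO replicate 1 it was 3.01 and passed the threshold. The difference between dcKO and the single knockouts was -7.40 against Sox4 cKO and -7.29 against Sox11 cKO, given here without a test.

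**Figure D1:**
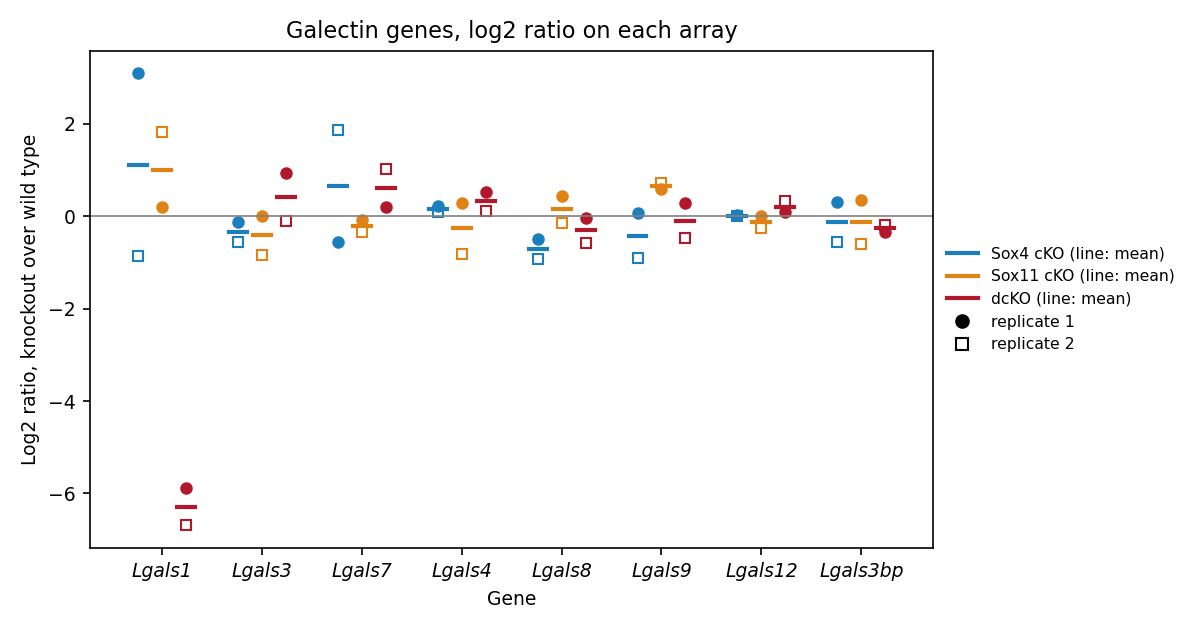
Log2 ratio of knockout over wild type (y axis) of the brightest probe of each galectin gene (x axis) on each of the 6 arrays, with filled circles for replicate 1, open squares for replicate 2 and a short line at the mean of the 2 arrays. *Lgals1* lies at -5.88 and -6.69 in dcKO cells, while the other 7 genes stay between -0.93 and 1.86 on every array.

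The wild-type channels differed strongly in *Lgals1*. The wild-type level was 10.56 and 12.47 on the Sox4 cKO arrays, 15.38 and 11.00 on the Sox11 cKO arrays, and 15.29 and 14.85 on the dcKO arrays. The lowest and highest of these wild-type channels thus differed by 4.82 on the log2 scale, or 28.2-fold. Such a range was larger than that of 99.3% of 16514 named probes above background, whose median range was 0.87. In the knockout channels the level was 13.65 and 11.60 for Sox4 cKO, 15.57 and 12.82 for Sox11 cKO, and 9.42 and 8.17 for dcKO. In the order of all 12 channels, both dcKO cultures were at the bottom, below the lowest wild-type culture at 10.56, and the other 10 channels mixed genotypes without order. The wild-type RNA of both dcKO arrays was among the 4 highest channels, so the ratio sets a low dcKO level against wild-type cultures at the high end of their range. *Lgals1* was well above background in all 12 channels, and 0 of the member spots were saturated.

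Fibroblasts also make *Lgals1*, and feeder cells had been in these cultures, so fibroblast markers were read beside it. Of 12 fibroblast markers, *Col1a1*, *Col3a1*, *Pdgfrb*, *Thy1*, *Lum* and *Postn* were above background in 0 of 12 channels, *Pdgfra* and *Dcn* in 1, *Col6a1* in 2, *Vim* in 4 and *Col1a2* in 11. Between 2 and 4 of the 12 were above background in a wild-type channel, 2 or 3 in a dcKO channel. The summed linear level of the list ran from 19421 to 105544 in wild-type channels and from 34002 to 44711 in dcKO channels. Most of that sum came from *Sparc*, a matrix protein that was above background in all 12 channels with wild-type levels from 14.22 to 16.68 and a dcKO log2 fold change of -1.20 ± 0.12 (SD, n = 2; adjusted p = 0.377 by limma). *Col1a2*, a chain of type I collagen, was 0.43 ± 0.05 in dcKO cells (SD, n = 2; adjusted p = 0.469 by limma), and *Col6a1*, a chain of type VI collagen, had the highest dcKO value of the list at 1.21 ± 1.48 (SD, n = 2; adjusted p = 0.155 by limma). *Vim*, an intermediate filament of mesenchymal cells, was called lower in Sox4 cKO cells (log2 fold change -2.27 ± 0.90, SD, n = 2; adjusted p = 0.0340 by limma) and was above background in 1 of the 4 channels of the dcKO arrays.

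**Figure D2:**
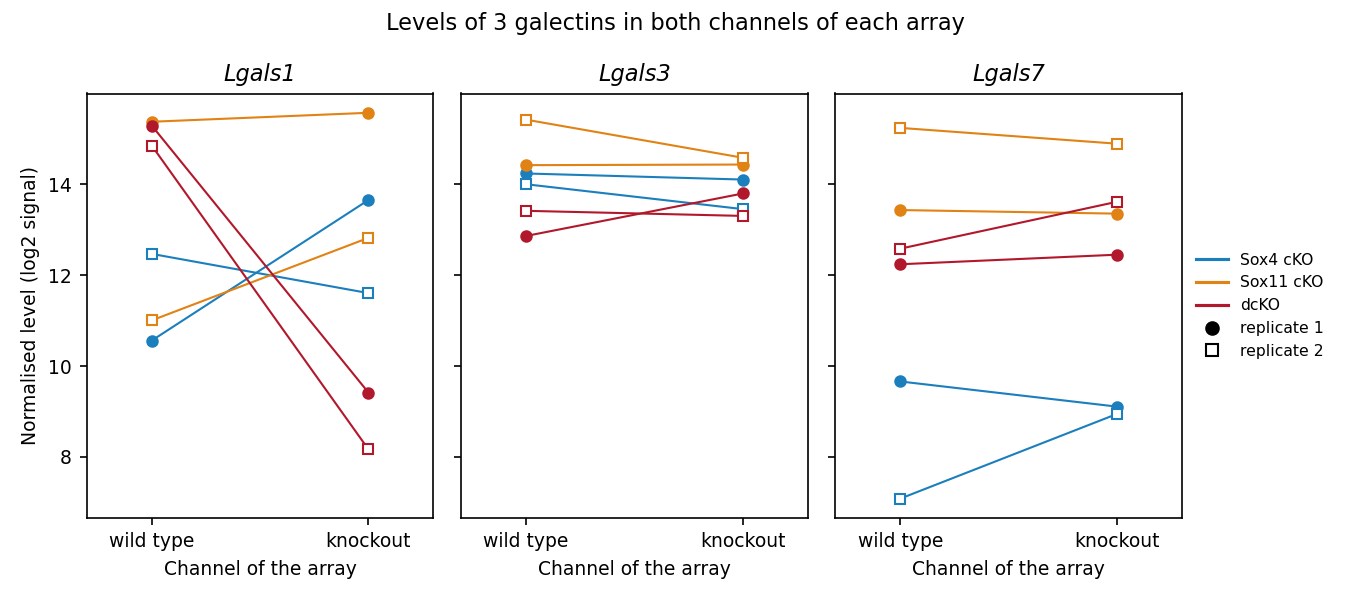
Normalised log2 level (y axis) of *Lgals1*, *Lgals3* and *Lgals7* in the wild-type and knockout channel (x axis) of each array, with a line joining the channels of 1 array. *Lgals1* drops from 15.29 and 14.85 to 9.42 and 8.17 on the dcKO arrays, whereas the *Lgals7* levels of both Sox4 cKO arrays, between 7.08 and 9.66, lie below those of the other 4 arrays, between 12.24 and 15.24.

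*Lgals3* (probe A_55_P2171116) was above background in all 12 channels, and its ratios stayed within 1 log2 unit of 0. Its wild-type level ran from 12.86 to 15.42 and its knockout level from 13.30 to 14.58. The log2 ratio was -0.13 and -0.55 on the Sox4 cKO arrays, 0.01 and -0.84 on the Sox11 cKO arrays, and 0.94 and -0.11 on the dcKO arrays. The genotypes overlapped in these ratios, which include the dye effect. With the fitted dye effect subtracted, they were -0.52 and -0.16 in Sox4 cKO and -0.37 and -0.45 in Sox11 cKO cells. In dcKO cells they were 0.55 and 0.27, above those of both single knockouts. The dcKO value of 0.41 ± 0.74 (SD, n = 2) did not pass the test (adjusted p = 0.339 by limma; 95% confidence interval 0.03 to 0.80). It was -0.13 with median centring in place of loess. Against Sox4 cKO and Sox11 cKO, the dcKO change of *Lgals3* differed by 0.75 and 0.82 (adjusted p = 0.239 and 0.229 by limma).

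*Lgals7* (probe A_51_P302327) varied more between wild-type cultures than any other member. The wild-type level was 9.66 and 7.08 on the Sox4 cKO arrays, 13.43 and 15.24 on the Sox11 cKO arrays, and 12.24 and 12.58 on the dcKO arrays. The knockout level was 9.11 and 8.95 for Sox4 cKO, 13.35 and 14.89 for Sox11 cKO, and 12.45 and 13.62 for dcKO. Wild-type and knockout levels had a Pearson correlation of 0.953 over 6 arrays, where the points share an array and its normalisation. The value for *Lgals1* was -0.325. It includes the dcKO arrays whose values chose that gene, so the 2 are not read as a contrast between members. The wild-type levels of *Lgals7* spanned 8.16 on the log2 scale, or 286-fold. This was a larger range than that of 99.96% of the named probes above background. The log2 ratio ranged from -0.55 to 1.86 over the arrays, and the dcKO value of 0.62 ± 0.58 (SD, n = 2) did not pass the test (adjusted p = 0.609 by limma; 95% confidence interval -0.27 to 1.51). The Sox4 cKO value was 0.66, and it was -0.42 without Sox4 cKO replicate 2.

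The suprabasal markers measured in the same cells also varied between channels. The summed level of 9 such genes ran from 8746 to 51210 in wild-type channels, from 19730 to 20666 in Sox4 cKO, from 14032 to 18382 in Sox11 cKO and from 14933 to 48279 in dcKO channels. By limma 0 of the 9 were called in any genotype, with 2, 0 and 6 at an unadjusted p below 0.05 in Sox4 cKO, Sox11 cKO and dcKO cells. Of all probes, dim ones included, 7.4%, 6.84% and 13% had an unadjusted p below 0.05 in these genotypes, which is the background for each such count. In dcKO cells their log2 fold changes ran from -1.25 for *Lor*, a cornified envelope protein, to 1.59 for *Dsg1a*, a desmosomal cadherin above background in 3 of 12 channels, with a median of 0.78. Their part in the spread of *Lgals7* was not tested.

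**Figure D3:**
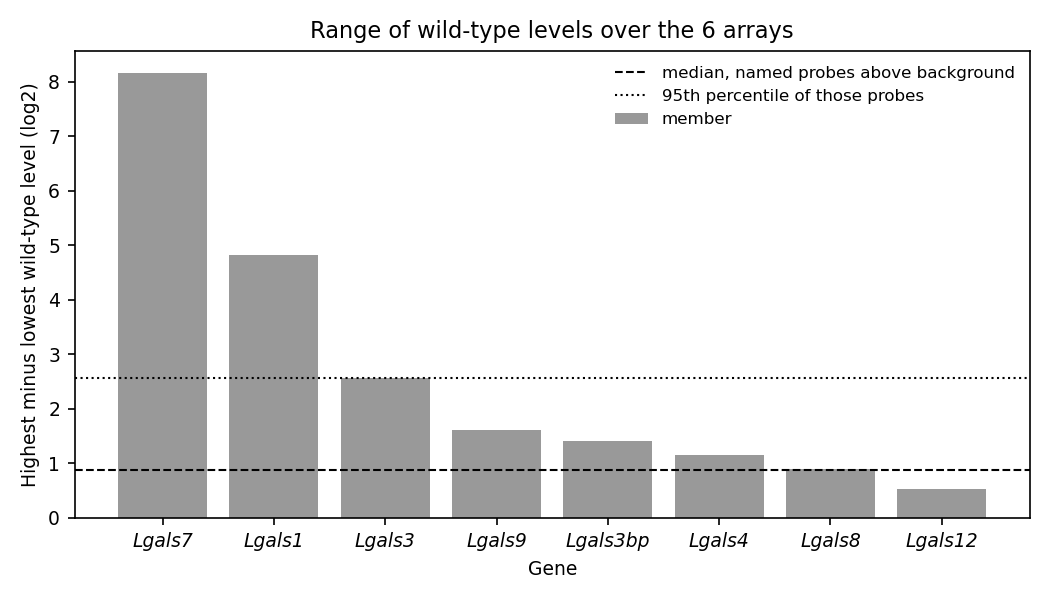
Highest minus lowest wild-type level (y axis, log2) over the 6 arrays for the brightest probe of each galectin gene (x axis), with the median (dashed) and the 95th percentile (dotted) of 16514 named probes above background. *Lgals7* at 8.16 and *Lgals1* at 4.82 lie above the 95th percentile of 2.56, *Lgals3* lies at it and *Lgals12* at 0.52 is lowest.

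The tandem-repeat galectins were measured at low to moderate signal. *Lgals8*, known for sensing damaged vesicles in the cytosol, had wild-type levels between 8.27 and 9.16. Its log2 ratio was -0.50 and -0.93 on the Sox4 cKO arrays, 0.45 and -0.14 on the Sox11 cKO arrays, and -0.03 and -0.57 on the dcKO arrays. Both Sox4 cKO arrays were below 0, and the mean of -0.71 ± 0.30 (SD, n = 2) had the lowest adjusted p of these 7 genes in that genotype without passing the test (adjusted p = 0.210 by limma; unadjusted p = 0.00133).

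*Lgals9*, a ligand of the immune receptor encoded by *Havcr2*, was above background in all 12 channels. The log2 ratio was 0.06 and -0.89 on the Sox4 cKO arrays, 0.59 and 0.71 on the Sox11 cKO arrays, and 0.28 and -0.46 on the dcKO arrays. It was higher on both Sox11 cKO arrays, and the mean of 0.65 ± 0.09 (SD, n = 2) did not pass the test (adjusted p = 0.496 by limma; 95% confidence interval 0.17 to 1.13). With the dye effect subtracted, the Sox11 cKO ratios of *Lgals9* lay further apart, at 0.32 and 0.97. Its level was highest in the Sox11 cKO cultures, at 7.498 and 7.93, and the wild-type cultures of those arrays were also the highest wild-type ones, at 6.91 and 7.22.

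*Lgals4*, a galectin of the gut epithelium, was covered by 3 probes, which were all above background in 12 of 12 channels with wild-type levels between 5.98 and 7.24. Their log2 fold changes ran from 0.11 to 0.17 in Sox4 cKO, from -0.28 to -0.15 in Sox11 cKO and from 0.10 to 0.32 in dcKO cells, where the brightest probe gave -0.056 with median centring in place of loess. The probes agreed in sign in each genotype. *Lgals12*, a galectin of adipocytes, was above background in 0 of 12 channels, so its ratios between -0.24 and 0.33 have no measured level on either side.

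*Lgals3bp* had a brighter probe that was above background in all 12 channels and a dimmer probe above background in 4 of 12. The log2 ratio of the brighter probe was 0.30 and -0.57 on the Sox4 cKO arrays, 0.35 and -0.61 on the Sox11 cKO arrays, and -0.34 and -0.19 on the dcKO arrays. Replicate 1 and replicate 2 were on opposite sides of 0 in both single knockouts, and the dcKO mean was -0.26 ± 0.10 (SD, n = 2; adjusted p = 0.735 by limma). With the dye effect subtracted, the ratios were 0.02 and -0.29 in Sox4 cKO and 0.07 and -0.33 in Sox11 cKO cells. In dcKO cells they were -0.61 and 0.09, so the replicates then lay on opposite sides of 0 in every genotype. The dimmer probe gave -0.25 in dcKO cells.

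Of the 7 members other than *Lgals1*, 0 were called in Sox4 cKO, Sox11 cKO or dcKO cells by limma, and 0 of them were called for the difference between dcKO and either single knockout, where 1 and 2 had an unadjusted p below 0.05, beside 12.1% and 10.3% of all probes. At an unadjusted p below 0.05 there was 1 of 7 in Sox4 cKO, 2 in Sox11 cKO and 1 in dcKO cells. Over all probes 0.562% were called for the difference of dcKO from Sox4 cKO and 0.449% for that from Sox11 cKO, so a count of 0 in 7 is near the background in every comparison. In dcKO cells their log2 fold changes ran from -0.30 (*Lgals8*) to 0.62 (*Lgals7*) with a median of 0.21, beside a median of -0.004 over all probes.

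Of 4 relatives of the galectin fold, 3 had a probe, and 0 were called by limma in any genotype, with 1 at an unadjusted p below 0.05 in dcKO cells and 0 in the others. *Lgalsl*, a galectin-like protein with no known sugar binding, was above background in all 12 channels. Its log2 ratio was -0.13 and 0.24 on the Sox4 cKO arrays, 0.08 and -0.97 on the Sox11 cKO arrays, and 0.84 and 0.97 on the dcKO arrays. Both dcKO arrays were above the other 4, and the dcKO mean of 0.91 ± 0.09 (SD, n = 2) did not pass the test (adjusted p = 0.133 by limma; 95% confidence interval 0.34 to 1.47). *Lgals2*, a galectin of the gut, was above background in 4 of 12 channels with values between -0.10 and 0.03, and *Grifin*, a lens protein, in 0 of 12.

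The 3 protein-coding genes on either side of *Lgals1* in the RefSeq order were *Gga1*, *Sh3bp1*, *Pdxp*, *Nol12*, *Triobp* and *H1f0*. Their log2 fold changes in dcKO cells ran from -0.16 (*Nol12*) to 0.34 (*H1f0*), and 0 of the 6 were called by limma or had an unadjusted p below 0.05 there. In Sox4 cKO cells all 6 were above 0, from 0.30 to 1.03, with 3 at an unadjusted p below 0.05, and in Sox11 cKO cells they ran from -0.30 to 0.38 with 0, and 0 were called by limma in either. Around all 8 members, 0 of 40 measured neighbours were called by limma in any genotype, with 6, 5 and 5 at an unadjusted p below 0.05. The lowest in dcKO cells was *Heatr1*, a ribosome biogenesis factor beside *Lgals8*, at -1.07 ± 0.08 (SD, n = 2; adjusted p = 0.0179 by limma), which passed the adjusted p but not the fold threshold, and the highest was *Ech1*, an enzyme of fatty acid oxidation beside *Lgals4* and *Lgals7*, at 0.64 ± 0.67 (SD, n = 2; adjusted p = 0.281 by limma).

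The genes whose 6 ratios lay closest to those of *Lgals1* were *Ldhb*, *Cyba*, *Wfdc2*, *Krt18* and *Rgs16*, in that order, by the root mean square difference of dye-adjusted log2 ratios among 12629 named genes above background. The difference was 1.48 for *Ldhb*, a subunit of lactate dehydrogenase, and 1.74 for *Cyba*, a subunit of the NADPH oxidase. It was 1.81 for *Wfdc2*, a secreted whey acidic protein, 1.83 for *Krt18*, a keratin of simple epithelia, and 1.90 for *Rgs16*, a regulator of G protein signalling. In dcKO cells these 5 genes had log2 fold changes between -4.76 and -3.22. In Sox4 cKO cells they lay between -0.49 and 1.59 and in Sox11 cKO cells between -0.60 and 1.34. The 6 ratios matched include the dcKO ratios that chose *Lgals1*, so a large dcKO fall in these genes follows from the matching. With the Pearson correlation in place of the difference 0 of the 5 closest genes were shared.

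The glycoproteins that galectins bind were examined next, since a galectin acts through them. Of 30 such genes, 2 were called lower in dcKO cells and 0 higher, beside 0.444% and 0.312% of all probes. By limma 0 were called in Sox4 cKO or Sox11 cKO cells. An unadjusted p below 0.05 by limma held for 6, 8 and 11 of the 30 in Sox4 cKO, Sox11 cKO and dcKO cells. Over all probes the share was 7.4%, 6.84% and 13%. All probes include many dim ones, while 28 of the 30 genes were above background on a dcKO array, so the shares are not like for like. The gene lists were also chosen with earlier results of these data known, so no excess is read from the counts. The median log2 fold change of the list in dcKO cells was -0.18, beside -0.004 over all probes. Both called genes, *Itga7* and *Fn1*, belong to the extracellular matrix and its receptors. The highest in dcKO cells was *Havcr2* at 0.80 ± 0.34 (SD, n = 2; adjusted p = 0.237 by limma).

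*Itga7* encodes the alpha-7 subunit of a laminin-binding integrin. It had log2 ratios of 1.499 and 0.33 on the Sox4 cKO arrays, 0.88 and 0.88 on the Sox11 cKO arrays, and -2.27 and -2.18 on the dcKO arrays. It was thus higher than wild type on all 4 arrays of the single knockouts and lower on both dcKO arrays. The dcKO log2 fold change was -2.23 ± 0.06 (SD, n = 2; adjusted p = 0.0066 by limma), and it differed from Sox4 cKO by -3.14 and from Sox11 cKO by -3.11 (adjusted p = 0.0140 and 0.0164 by limma). The wild-type level of *Itga7* was 5.89 and 5.96 on the Sox4 cKO arrays, 9.57 and 6.04 on the Sox11 cKO arrays, and 9.34 and 8.05 on the dcKO arrays. It was high in the 3 wild-type cultures in which *Lgals1* was high, with a Pearson correlation of 0.936 over the 6 wild-type channels, the highest among 9 genes for which it was computed after their values were seen. These channels share the normalisation between arrays. The mean knockout level of *Itga7* was 6.84 in Sox4 cKO, 8.68 in Sox11 cKO and 6.47 in dcKO cells. The wild-type means on the same arrays were 5.92, 7.80 and 8.70. The dcKO mean thus lay above the wild-type levels of 5.89, 5.96 and 6.04. Most of the difference between dcKO and Sox4 cKO lay in the wild-type channels.

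*Fn1* encodes fibronectin. Its log2 ratio was -0.36 and -2.28 on the Sox4 cKO arrays, -1.39 and -1.03 on the Sox11 cKO arrays, and -3.54 and -4.40 on the dcKO arrays. All 6 arrays were below 0, with both dcKO arrays lowest. The dcKO log2 fold change was -3.97 ± 0.60 (SD, n = 2; adjusted p = 0.00285 by limma), while -1.32 in Sox4 cKO and -1.21 in Sox11 cKO did not pass the test (adjusted p = 0.375 and 0.386 by limma). The difference between dcKO and either single knockout, -2.65 and -2.76, did not pass it either (adjusted p = 0.0650 and 0.0639 by limma). *Fn1* was above background on 1 of 2 arrays in the dcKO channel.

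*Podxl*, a sialomucin, passed the adjusted p but not the fold threshold and was singled out after its values were seen. Its log2 fold change was -1.31 in Sox11 cKO and -1.27 in dcKO cells (adjusted p = 0.0326 and 0.00884 by limma), against 0.91 in Sox4 cKO cells (adjusted p = 0.0995 by limma). Sox11 cKO and dcKO channels were not well above background for it, so it was at least 2.09-fold and at least 2.19-fold lower there, measured against the lowest signal well above background on each array.

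The enzymes that build or mask galectin-binding glycans held calls in each genotype. Of 29 such genes, 1 was called higher and 0 lower in Sox4 cKO, 0 higher and 1 lower in Sox11 cKO, and 1 higher and 2 lower in dcKO cells. Over all probes 0.0413% were called higher and 0.101% lower in Sox4 cKO, 0.018% higher and 0.0682% lower in Sox11 cKO, and 0.312% higher and 0.444% lower in dcKO cells. The medians of the list were 0.03, -0.11 and -0.12, beside 0.002, -0.002 and -0.004 over all probes. An unadjusted p below 0.05 by limma held for 8, 6 and 13 of the 29 in these genotypes, beside 7.4%, 6.84% and 13% of all probes. Here 26 of the 29 were above background on a dcKO array, so no excess over all probes is read for this list either. The called genes were a branching enzyme that rose and a second branching enzyme and a sialyltransferase that fell.

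*St6gal1* adds alpha-2,6-linked sialic acid to galactose, a cap known to block galectin-1 binding. The wild-type level of its brightest probe was 5.31 and 6.20 on the Sox4 cKO arrays, 7.25 and 7.12 on the Sox11 cKO arrays, and 7.87 and 7.18 on the dcKO arrays. The log2 ratio was -0.12 and 0.12 in Sox4 cKO, -2.04 and -2.29 in Sox11 cKO, and -2.53 and -1.87 in dcKO cells. It was lower on all 4 arrays that lacked *Sox11*. The log2 fold change was -2.16 ± 0.18 in Sox11 cKO and -2.20 ± 0.47 in dcKO cells (SD, n = 2; adjusted p = 0.0163 and 0.00305 by limma). As the knockout channel was not well above background on these 4 arrays, it was at least 4.26-fold lower in Sox11 cKO and at least 4.43-fold lower in dcKO cells. On the Sox4 cKO arrays each channel was above background on 1 of 2 arrays, so a fall of that size could not have shown there, and no difference between genotypes is read. A second probe of the gene was above background in 0 of the arrays, and the mean over both probes, -1.10 and -1.15, did not pass the threshold.

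*Gcnt3* makes core 2 and core 4 branches on mucin-type glycans. Its log2 ratio was 2.43 and 1.73 in Sox4 cKO, 0.02 and -0.19 in Sox11 cKO, and 2.46 and 2.29 in dcKO cells. It was higher on all 4 arrays that lacked *Sox4*, with a log2 fold change of 2.08 ± 0.50 in Sox4 cKO and 2.38 ± 0.12 in dcKO cells (SD, n = 2; adjusted p = 0.00869 and 0.00125 by limma). The value in Sox11 cKO was -0.08 (adjusted p = 0.989 by limma), and dcKO differed from it by 2.46 (adjusted p = 0.0127 by limma) and from Sox4 cKO by 0.30 (adjusted p = 0.704 by limma).

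*Gcnt1*, a core 2 branching enzyme whose product carries ligands of galectin-1, had log2 ratios of 0.38 and 0.88 in Sox4 cKO, -0.04 and -0.48 in Sox11 cKO, and -1.43 and -1.90 in dcKO cells. Both dcKO arrays were the lowest for this brightest probe. The dcKO log2 fold change was -1.67 ± 0.33 (SD, n = 2; adjusted p = 0.0107 by limma), at least 2.85-fold lower because the dcKO channel was not well above background. The dimmer of its 2 probes gave -0.58 in dcKO cells (adjusted p = 0.270 by limma). That probe gave -0.80 in Sox11 cKO cells (adjusted p = 0.353 by limma), so dcKO was not the lowest genotype there.

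**Figure D4:**
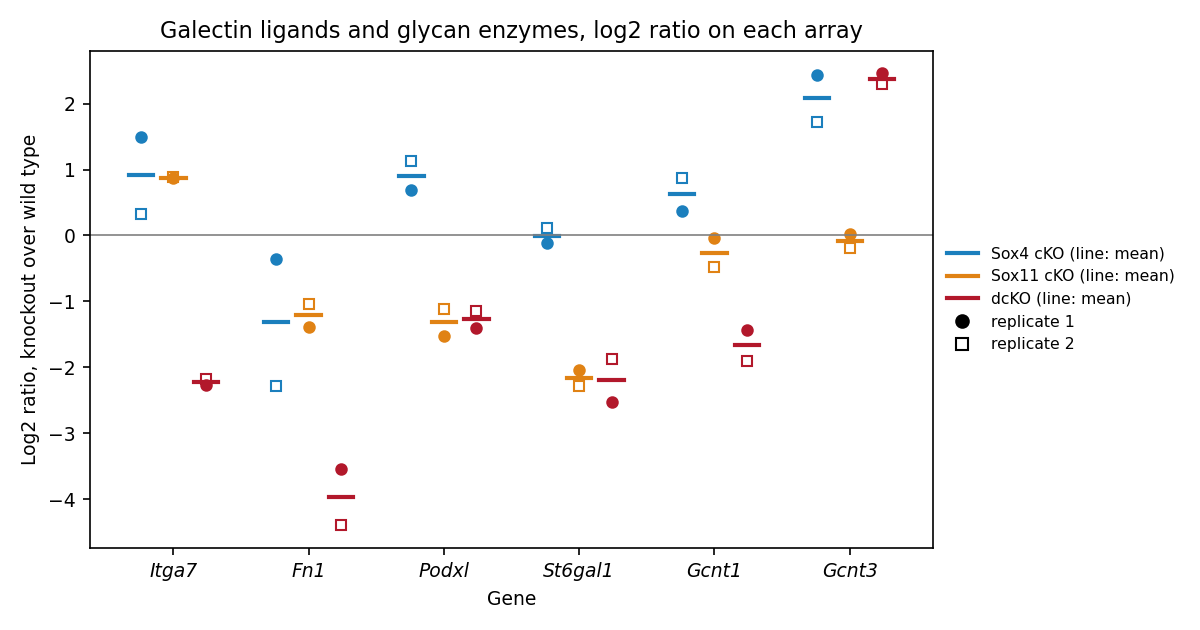
Log2 ratio of knockout over wild type (y axis) on each array for the brightest probe of 3 galectin-binding glycoproteins and 3 glycan enzymes (x axis), with filled circles for replicate 1, open squares for replicate 2 and a line at the mean. *St6gal1* is low on the 4 Sox11 cKO and dcKO arrays, *Gcnt3* is high on the 4 Sox4 cKO and dcKO arrays, and *Itga7*, *Fn1* and *Gcnt1* are lowest on the dcKO arrays.

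These calls rested on the setting of the background correction and on both arrays. With a normexp offset of 50 in place of 16, or with the scanner software's processed signals, 0 of the 7 calls of ligands and enzymes held, and with an offset of 0 only *Gcnt3* in dcKO did, while all 7 kept their sign. *St6gal1* in Sox11 cKO was no longer called when that genotype's arrays were fitted alone (-2.16), and with the mean over a gene's probes *Gcnt1* in dcKO was not called either (-1.12). The called differences of *Itga7* and *Gcnt3* between genotypes were lost with an offset of 50 or 0, with the processed signals and without either dcKO array, and that of *Itga7* from Sox4 cKO also without Sox4 cKO replicate 1 (-2.54). Without dcKO replicate 1, *Itga7*, *Fn1*, *St6gal1* and *Gcnt1* were no longer called in dcKO cells (-1.89, -4.01, -1.87 and -1.92), without dcKO replicate 2, *Itga7*, *Fn1*, *Gcnt1* and *Gcnt3* (-2.56, -3.93, -1.42 and 2.23), and without Sox4 cKO replicate 1 or replicate 2, *Gcnt3* in Sox4 cKO (1.83 and 2.34).

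Galectins also meet partners inside the cell. Of 11 such genes, 0 were called by limma in any genotype, with 1, 2 and 2 at an unadjusted p below 0.05 in Sox4 cKO, Sox11 cKO and dcKO cells and a median log2 fold change of -0.18 in dcKO cells. The lowest in dcKO was *Bcl2*, a survival protein that galectin-3 binds, at -0.64 ± 0.36 (SD, n = 2; adjusted p = 0.154 by limma), and the highest was *Calcoco2*, an autophagy receptor that galectin-8 recruits, at 0.14 ± 0.20 (SD, n = 2; adjusted p = 0.845 by limma).

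Markers of other cell types gave these values beside the galectins. Among 6 adipocyte or sebocyte markers, *Fabp4* was called lower in dcKO cells (-2.81 ± 0.59, SD, n = 2; adjusted p = 0.0413 by limma), with wild-type levels from 6.93 to 11.26. *Scd1*, a fatty acid desaturase above background in all 12 channels, was -1.47 ± 0.22 in dcKO cells (SD, n = 2; adjusted p = 0.0102 by limma), past the adjusted p but not the fold threshold. *Cidea* was above background in 9 channels with wild-type levels from 5.34 to 12.02 and a dcKO value of -0.80 ± 0.82 (SD, n = 2; adjusted p = 0.659 by limma), and *Pparg* was above background in 8, while *Adipoq* and *Plin1* were above background in 0 of 12 channels, as was *Lgals12*. *Krt15*, a basal keratin, was called lower in Sox4 cKO cells (-1.58 ± 0.08, SD, n = 2; adjusted p = 0.0244 by limma) and was 0.85 ± 0.05 in dcKO cells (SD, n = 2; adjusted p = 0.0431 by limma). Of 7 melanocyte and 7 immune markers, 0 were called by limma in any genotype, and at an unadjusted p below 0.05 there was 1 melanocyte marker in Sox11 cKO and 1 in dcKO cells and 0 immune markers. *Dct*, *Tyrp1*, *Sox10*, *Cd207*, *Itgax* and *Tyrobp* were above background in 0 of 12 channels, *Ptprc* and *Cd74* in 1, *Cd52* in 5, *Tyr* in 8, *Pmel* and *Mlana* in 11, and *Mitf* and *Cd3e* in 12. In dcKO cells the melanocyte markers ran from -0.64 (*Mlana*) to 0.78 (*Mitf*) and the immune markers from -0.29 (*Cd74*) to 0.31 (*Cd3e*). The calls of *Vim*, *Krt15* and *Fabp4* were lost with an offset of 50 or 0, with the processed signals, with dim probes left out and without either array of the genotype. Those of *Vim* and *Fabp4* were also lost without the dye term or with the dye effect subtracted before the fit, that of *Krt15* with median centring (-1.49), that of *Vim* without either dcKO array and that of *Fabp4* without either Sox4 cKO array. Without an array of the genotype, values were -2.93 and -1.60 for *Vim* without Sox4 cKO replicate 1 and replicate 2, and -1.77 and -3.85 for *Fabp4* without dcKO replicate 1 and replicate 2. The part of these markers in the values of the galectins was not tested.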

How the data were processed

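Expression was read on 2-colour arrays scanned with Agilent Feature Extraction 11.0.1.1, per the file headers. Knockout RNA was in Cy5 on replicate 1 and in Cy3 on replicate 2 of each genotype, and all arrays lay on 1 slide and 1 scan. The deposited scanner intensity values are median spot signals and local background medians. The processed signals and the log2 value table, which the authors made with limma and whose columns correlated with the ratios used here at 0.891 to 0.952, were alternatives. The deposited log10 ratios of the scanner software were not used.

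In limma 3.58.1 (R 4.3.3), background was corrected with normexp at an offset of 16, ratios were loess-normalised within arrays with control spots at weight 0, 194 to 288 outlier spots an array were left out, and spots of a probe were averaged. Of 55681 probes, 28331 (50.9%) were named through RefSeq accessions. A model over the 6 arrays held genotype terms and a dye term, which equals blocking on replicate number. Deviations of same-numbered arrays correlated at 0.125 to 0.316. Tests used eBayes with Benjamini-Hochberg adjustment over all probes, without filter, with 2 residual and 5.37 prior degrees of freedom, and the number of arrays limits the precision. Channel levels were scaled with Aquantile. A gene was represented by its brightest probe.

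The members and gene lists were chosen with earlier results of these data known. Named were all members and relatives, every gene of other lists called in a genotype or else the highest and lowest in dcKO, and the 5 genes most like *Lgals1*. Alternatives changed the offset, signals, normalisation, dye term, filter, samples and probe rule.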

Additional observations from a re-analysis of the deposited data

Results flagged for a closer look

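Flagged here were genes whose log2 fold changes lay apart between genotypes. Not all of them passed a test, and the calls did not hold under all settings. *Lgals1* differed between dcKO and Sox11 cKO by -7.29 on the log2 scale, and both dcKO arrays were below 0. Both Sox11 cKO arrays were above 0 in ratios that include the dye effect, and at -0.33 and 2.34 with it subtracted. This difference was not tested because the dcKO values chose the gene. *Lgals7* was below 0 on both Sox11 cKO arrays and above 0 on both dcKO arrays in ratios that include the dye effect. With that effect subtracted, it was 0.42 and -0.84 in Sox11 cKO and 0.71 and 0.54 in dcKO cells. The difference of 0.84 between these genotypes did not pass the test (limma adjusted p = 0.7104).

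*Itga7* differed between dcKO and Sox4 cKO by -3.14 and between dcKO and Sox11 cKO by -3.11, and was above 0 on all 4 arrays of the single knockouts. Its mean knockout levels in Sox4 cKO and dcKO cells, 6.84 and 6.47, lay closer together than the wild-type means there, 5.92 and 8.70. *Gcnt3* differed between dcKO and Sox11 cKO by 2.46, *St6gal1* between dcKO and Sox4 cKO by -2.20, and *Gcnt1* between dcKO and Sox4 cKO by -2.29. *Krt15* differed between dcKO and Sox4 cKO by 2.43, being lower than wild type in Sox4 cKO and higher in dcKO cells. Its mean knockout level was 7.16 in Sox4 cKO and 7.29 in dcKO cells. The mean wild-type level on the same arrays was 8.74 and 6.44, so most of this difference lay in the wild-type channels. For *St6gal1* and *Gcnt1* the dcKO channel was not well above background on either array, and *St6gal1* was above background on 1 of 2 Sox4 cKO arrays in each channel, so these values are differences of fitted values limited by the floor and not read as differences between genotypes. By limma all 6 had an adjusted p and a size past the thresholds, but 0 of the 6 held with an offset of 50 or 0, with the processed signals or without either dcKO array. With a normexp offset of 50, 0 of all probes were called by limma for either difference, where 6669 and 5842 had an unadjusted p below 0.05 for that from Sox4 cKO and from Sox11 cKO.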

How the results depend on the processing

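Of 381 values of member fold changes under alternatives, 362 kept their direction and their side of the threshold, 13 changed sign, 5 were no longer called and 1 became called. *Lgals1* in dcKO stayed between -6.80 and -6.10 over all of them. With an offset of 50, an offset of 0 or the processed signals, members called fell from 1 to 0 in dcKO and for both differences of dcKO from the single knockouts. The member counted was *Lgals1*, whose dcKO values chose it. Here and below, counts of members called in dcKO or for a difference follow from that choice and are no test of the gene. Glycan enzymes called then fell to 0 in each genotype, except 1 in dcKO with an offset of 0, and ligands in dcKO, basal and fibroblast markers in Sox4 cKO and adipocyte markers in dcKO fell to 0. With an offset of 50 the probes called over the array were 3, 0 and 78 in Sox4 cKO, Sox11 cKO and dcKO, against 79, 48 and 421. With median centring, glycan enzymes called in dcKO were 6, neighbours 1, suprabasal markers 1 and adipocyte markers 2, basal markers in Sox4 cKO were 0, and *Lgals3* and *Lgals4* in dcKO turned to -0.13 and -0.056. With the values of the authors, glycan enzymes called in Sox11 cKO were 2. Without the replicate block, 0 fibroblast markers in Sox4 cKO, 0 adipocyte markers in dcKO and 0 members for both differences were called, and probes called were 35, 18 and 301. Without the block the 7 calls of ligands and enzymes against wild type and 6 called differences between genotypes, those of *Itga7*, *Gcnt3*, *St6gal1*, *Gcnt1* and *Krt15*, remained, while probes called for the differences fell from 313 to 97 for Sox4 cKO and from 250 to 88 for Sox11 cKO. With dim probes left out, members called were 0 for both differences, and with the dye effect subtracted or the mean of a gene's probes 0 for that from Sox11 cKO.

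Leaving out 1 array, members called ran from 0 to 1 in Sox11 cKO, in dcKO and for both differences. The fold change ran in Sox4 cKO from -1.07 to 3.30 for *Lgals1*, -0.16 to 0.47 for *Lgals4*, -0.42 to 1.73 for *Lgals7* and -0.36 to 0.10 for *Lgals3bp*. In Sox11 cKO it ran from -0.99 to 3.01 for *Lgals1*, -0.67 to 0.15 for *Lgals4*, -1.16 to 0.73 for *Lgals7*, -0.43 to 0.17 for *Lgals3bp* and -0.30 to 0.055 for *Lgals12*, and in dcKO from -0.26 to 0.072 for *Lgals9* and -0.79 to 0.26 for *Lgals3bp*. The lone array left is then assumed to vary like the others. The wild-type range of *Lgals8* was 1.40 rather than 0.89 without normalisation between arrays, an alternative chosen after seeing the data. Mean spot signals were not run. The cause of these changes was not tested.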
